A study of Mus musculus with 13 samples.

Results

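Among 7 aortas labelled Ad-FAM3A, 4 held a transcript of chromosome 11, BC018473, at over 100 counts, and the other 3 held fewer than 10. The members were chosen by that count alone. Ad-FAM3A1, Ad-FAM3A2, Ad-FAM3A5 and Ad-FAM3A7 are called expressing here, and Ad-FAM3A3, Ad-FAM3A4 and Ad-FAM3A6 are called low. They are 7 of the 13 aortas of the series, which also holds 6 Ad-sham aortas. All mice were ApoE-/-, which lack apolipoprotein E and develop atherosclerosis. They were 10 weeks old when they began to receive angiotensin II by osmotic pump at 1000 ng/kg/min for at most 28 days, a treatment that induces abdominal aortic aneurysm. Ad-FAM3A aortas came from mice injected 5 times with an adenovirus carrying mouse Fam3a, which encodes a cytokine-like secreted protein, and Ad-sham aortas from mice given the same vector without that gene. The virus was given into the tail vein, so it was not directed to the aorta. RNA of whole aortic tissue was sequenced, with 1 library per aorta. Both sets of the comparison therefore share genotype, angiotensin II and virus, and the labels give no difference between them. Ad-FAM3A6 stood apart from the other Ad-FAM3A libraries, with Pearson correlations of log2 CPM across genes with them of 0.795 to 0.928, the highest with Ad-FAM3A7. The lowest among the other 6 was 0.867. The Y-linked gene Ddx3y was expressed in all 13 aortas, at 79.3 CPM or more.

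BC018473 is a transcript of unknown function that the annotation classes as antisense. It lies between St6galnac1, which encodes a sialyltransferase, and Gm11735, annotated as an unprocessed pseudogene. Sialyltransferases add sialic acid to the ends of sugar chains on proteins and lipids. The St6galnac1 enzyme acts on the first sugar of mucin-type O-glycans, N-acetylgalactosamine, and makes the sialyl-Tn antigen, which is known mainly from mucus-producing epithelia and their tumours. In the artery wall, sialic acid on endothelial and blood cell glycans takes part in the binding of selectins and Siglecs.

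The 3 genes lie within 36.4 kb on chromosome 11 of GRCm38. Gm11735 (ENSMUSG00000078586) spans 116739062 to 116749833 on the minus strand. BC018473 (ENSMUSG00000056032) spans 116752167 to 116759373 on the plus strand and starts 2.33 kb beyond the end of Gm11735. St6galnac1 (ENSMUSG00000009588) spans 116765025 to 116775507 on the minus strand, 5.65 kb beyond BC018473. No gene of the count table overlaps any of the 3. The nearest neighbours outside are St6galnac2, 44.2 kb from Gm11735, and Mxra7, 27.6 kb from St6galnac1.

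Gm11735 and St6galnac1 are near copies, which decides how far their reads can be told apart. In GENCODE M21 the Gm11735 transcript of 1581 bases aligned without a gap to the whole coding sequence of St6galnac1, stop codon included, which is also 1581 bases long. The sequences were identical at 1549 bases (98.0%) and differed at 32. Each has 9 exons, of which 7 have the same length in both genes, and exon 2 holds 20 of the differences. The stretch with most of them, 12 differences in 150 bases, is shown because, within the aligned part, only reads across such bases can be assigned to 1 of the genes. It lies at chr11:116742551-116742700 in Gm11735 and at chr11:116769220-116769369 in St6galnac1, both on the minus strand, and capitals mark the differing bases.
Gm11735: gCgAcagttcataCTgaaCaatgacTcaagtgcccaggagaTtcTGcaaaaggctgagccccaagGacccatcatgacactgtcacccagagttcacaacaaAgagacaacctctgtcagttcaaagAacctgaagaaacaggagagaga
St6galnac1: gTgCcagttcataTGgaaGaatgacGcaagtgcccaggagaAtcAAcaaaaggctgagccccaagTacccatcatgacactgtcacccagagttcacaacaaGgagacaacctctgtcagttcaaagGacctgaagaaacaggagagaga
Exon 6 is shown because its single difference, in capitals, closes the reading frame of Gm11735 with a stop codon at codon 368 that St6galnac1 does not have. It lies at chr11:116739869-116739972 in Gm11735 and at chr11:116766538-116766641 in St6galnac1.
Gm11735: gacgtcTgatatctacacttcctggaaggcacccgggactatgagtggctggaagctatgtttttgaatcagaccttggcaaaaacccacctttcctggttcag
St6galnac1: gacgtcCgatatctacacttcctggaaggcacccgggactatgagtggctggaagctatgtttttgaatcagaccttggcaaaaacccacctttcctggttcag
Of the 1432 windows of 150 bases, the read length, along the aligned sequence, 377 (26.3%) held no difference. How the authors' counting treated reads that fit both genes is not stated, so the counts of St6galnac1 and Gm11735 are uncertain between the 2 genes. The first 120 bases of the longest BC018473 transcript, at chr11:116752167-116752286 on the plus strand, are shown as the start of the transcript that divides the aortas.
BC018473: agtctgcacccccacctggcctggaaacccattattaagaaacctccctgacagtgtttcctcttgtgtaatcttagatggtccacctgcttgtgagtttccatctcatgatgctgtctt
Of the 4704 runs of 50 bases in the longest BC018473 transcript (4753 bases), 0 occurred in a transcript of another gene. The other BC018473 transcripts were not searched.

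BC018473 had 312 counts in Ad-FAM3A1, 643 in Ad-FAM3A2, 327 in Ad-FAM3A5 and 1104 in Ad-FAM3A7. It had 5 counts in Ad-FAM3A3, 0 in Ad-FAM3A4 and 5 in Ad-FAM3A6. The threshold therefore fell between an aorta at 312 counts and aortas at 5. The 6 Ad-sham aortas, which the rule did not use, had between 0 and 5 counts and resembled the low Ad-FAM3A aortas. Library totals were alike, at 14587123 to 16576977 counts in expressing aortas, 14481179 to 16316600 in low ones and 15588507 to 19797407 in Ad-sham.

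In CPM (counts scaled to the library total, with TMM factors over the 13 aortas), BC018473 stood at 18.7, 39.4, 24.1 and 63.7 in Ad-FAM3A1, Ad-FAM3A2, Ad-FAM3A5 and Ad-FAM3A7. The mean was 36.5 ± 20.2 CPM (SD, n = 4), and no other aorta exceeded 0.351 CPM. The expressing aortas varied among themselves by 3.41-fold. Pooled over libraries, the level was 174-fold higher than in the low aortas (95% Poisson interval 94.6 to 364) and 274-fold higher than in the other 9 aortas. These folds describe the split and are not a test of it, because the same counts chose the members. All such intervals cover counting error only.

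St6galnac1, which the rule did not use but which was known beforehand to share the pattern, had 25 counts in Ad-FAM3A1, 60 in Ad-FAM3A2, 31 in Ad-FAM3A5 and 92 in Ad-FAM3A7. It had 0 counts in each of the other 9 aortas, where 3 counts correspond to 0.140 to 0.211 CPM. Its mean was 3.19 ± 1.67 CPM (SD, n = 4) in the expressing aortas. Pooled over libraries, its level was 50.6-fold that of the low aortas when these are set at a floor of 3 counts in all. With the 0 counts that the low aortas had, the lower 95% counting limit of the ratio was 40.8, with no upper limit. Gm11735 had 8, 30, 13 and 43 counts in Ad-FAM3A1, Ad-FAM3A2, Ad-FAM3A5 and Ad-FAM3A7, 1 count in Ad-FAM3A4 and 0 elsewhere. Its mean was 1.44 ± 0.894 CPM (SD, n = 4), and with 1 count in the low aortas its ratio has a counting interval of 12.0 to 2740. The expressing and low aortas did not overlap for any of the 3 genes, and neither did the expressing aortas and the other 9.

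**Figure D1:**
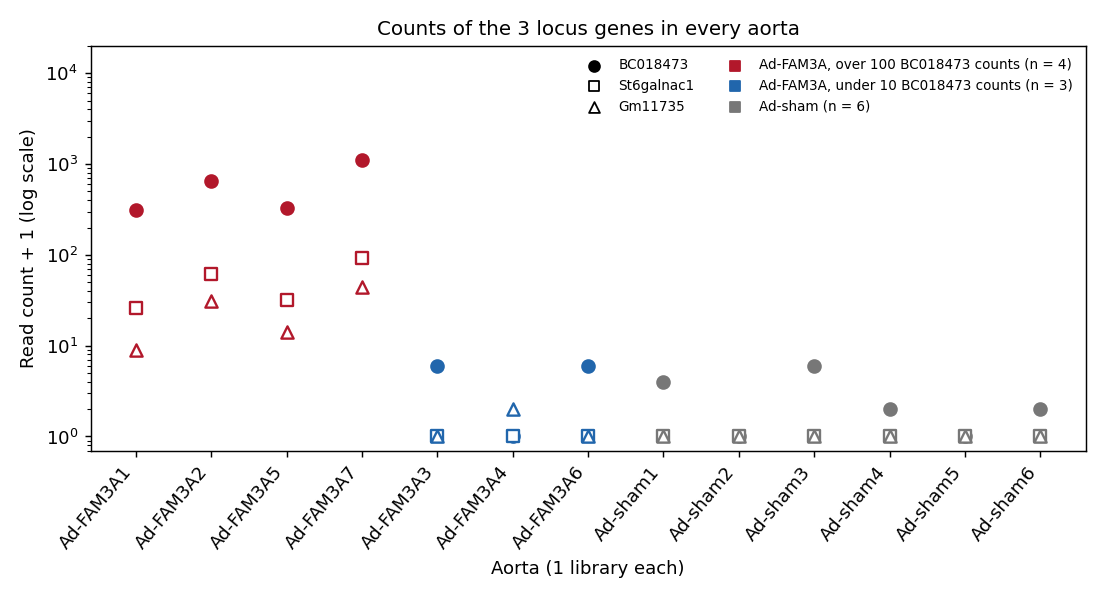
Read counts plus 1, on a log scale, of BC018473 (filled circles), St6galnac1 (open squares) and Gm11735 (open triangles) in each of the 13 aortas, 1 library each, coloured by set. The 4 expressing aortas lie at 312 to 1104 BC018473 counts, and all others at 5 or fewer.

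The order of the expressing aortas was the same for each gene, with Ad-FAM3A7 highest, then Ad-FAM3A2, Ad-FAM3A5 and Ad-FAM3A1. Relative to 100 BC018473 counts in the same library, St6galnac1 had 8.01 counts in Ad-FAM3A1 (95% interval 5.11 to 12.1), 9.33 in Ad-FAM3A2 (7.04 to 12.2), 9.48 in Ad-FAM3A5 (6.34 to 13.7) and 8.33 in Ad-FAM3A7 (6.66 to 10.3). The intervals overlapped one another, and with as few as 25 counts they are wide and cover counting error only. Gm11735 had 2.56 counts per 100 in Ad-FAM3A1 (1.10 to 5.12), 4.67 in Ad-FAM3A2 (3.12 to 6.73), 3.98 in Ad-FAM3A5 (2.09 to 6.89) and 3.89 in Ad-FAM3A7 (2.80 to 5.28). Those intervals overlapped as well. Per length, BC018473 remained the most abundant of the 3, at 3.41 to 11.6 RPKM (CPM divided by exonic length in kilobases), against 0.6252 to 2.22 RPKM for St6galnac1 and 0.303 to 1.57 RPKM for Gm11735.

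**Figure D2:**
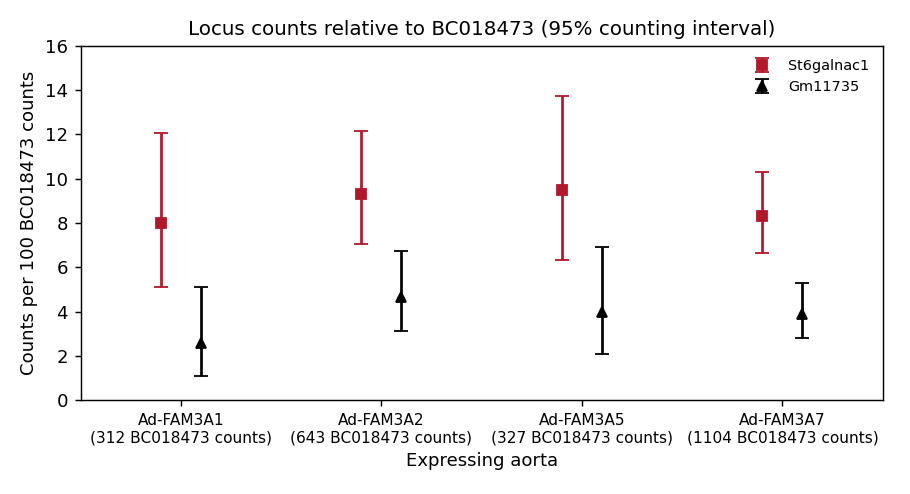
Counts of St6galnac1 (squares) and Gm11735 (triangles) per 100 BC018473 counts in the 4 expressing aortas, with 95% counting intervals. St6galnac1 sits between 8.01 and 9.48 and Gm11735 between 2.56 and 4.67, with intervals that overlap between aortas.

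Across all genes, expressing and low aortas were set against each other with the quasi-likelihood test of edgeR, where a call needed |log2FC| above 1 and an adjusted p below 0.05. Of 16078 genes tested, 0 were called (0%), and 181 had an unadjusted p under 0.05 (1.13%), 84 higher (0.522%) and 97 lower (0.603%) in the expressing aortas. That count was 1026 without Ad-FAM3A4, 112 without Ad-FAM3A2 and 298 without Ad-FAM3A6. The log2 fold changes (log2FC) were 7.36 (SE 0.885) for BC018473, 8.67 (SE 1.08) for St6galnac1 and 5.65 (SE 1.09) for Gm11735. These are given as descriptions, and those of St6galnac1 and Gm11735 depend on the prior count of the fit because the low aortas were at or near 0. DESeq2, applied to the same counts, called 2 of 28446 genes (0.00703%), both higher: BC018473 and St6galnac1. The first chose the sets and the second was known to follow it, so these calls do not test the split. No gene other than these was called by either tool. Without the 3 locus genes, 178 of 16075 genes had an unadjusted edgeR p under 0.05 (1.11%), and the smallest adjusted p was 0.999, or 0.112 without Ad-FAM3A4 and 0.525 without Ad-FAM3A1. An exact two-sided permutation test over the 35 ways to split the 7 aortas cannot give a p below 0.0571, so no single gene could pass 0.05 by that test.

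All-or-none differences were counted separately. A gene counted as switched where its lowest count in 1 set exceeded 5 and was over 5 times the highest count of the other set plus 1. By that rule 2 genes were on in the expressing and off in the low aortas, BC018473, which the selection fixed, and St6galnac1, and 0 genes were on in the low and off in the expressing aortas. The same 2 genes were on in the expressing aortas and off in the other 9. Gm11735 missed the rule with 8 counts in Ad-FAM3A1 against 1 in Ad-FAM3A4.

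Ranges of the expressing and low aortas did not overlap for 372 genes (2.31%), of which 201 were higher (1.25%) and 171 lower (1.06%) in the expressing aortas. Against the other 9 aortas, 11 genes did not overlap (0.0684%), 4 higher (0.0249%) and 7 lower (0.0435%). The 4 higher ones were BC018473, St6galnac1, Gm11735 and Ppp1ccb. Ppp1ccb, on chromosome 7, had 7.66, 7.59, 8.19 and 7.90 CPM in Ad-FAM3A1, Ad-FAM3A2, Ad-FAM3A5 and Ad-FAM3A7, 5.59 to 6.89 CPM in the low aortas and 4.56 to 7.12 CPM in Ad-sham, a log2 fold change of 0.34. The 7 lower genes were Ccdc18, Glyctk, C430014B12Rik, Il17rb, Dennd6b, Psmf1 and Abcb1b, none on chromosome 11. The last of these, a transporter of the multidrug resistance family, had 15.1 to 17.1 CPM in the expressing aortas and 17.3 to 27.6 CPM in the other 9, and Glyctk, which encodes glycerate kinase, had 0.750 to 0.980 CPM in the former and at least 1.01 CPM in the latter.

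The next question was how far the difference reached along the chromosome. The count table lists 25 genes within 250 kb of BC018473, of which 16 passed the filter on low counts and 9 did not. Of those 9, 6 had no count in any aorta (Rpl36-ps1, Gm11742, Snord1a, Snord1b, Snord1c and Gm27401), while Gm29292 reached 6 counts, Aanat 4 and a second St6galnac2 identifier 18. The locus genes passed this filter through the expressing aortas, so their passing is not separate support.

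St6galnac2, the nearest gene on the Gm11735 side and a sialyltransferase of the same family, had 12.0, 13.9, 8.26 and 14.2 CPM in Ad-FAM3A1, Ad-FAM3A2, Ad-FAM3A5 and Ad-FAM3A7. It had 10.1, 12.6 and 9.78 CPM in Ad-FAM3A3, Ad-FAM3A4 and Ad-FAM3A6, within the expressing range. Its log2 fold change was 0.18, with a 95% interval of -0.47 to 0.83. Mxra7, a matrix remodelling associated gene and the nearest on the St6galnac1 side, had 39.3, 47.1, 33.9 and 28.1 CPM in the expressing aortas in the same order, and 33.8, 52.0 and 11.6 CPM in the low ones. These also overlapped, with a log2 fold change of 0.22 (95% interval -0.79 to 1.23) that became -0.21 without Ad-FAM3A6. Neither neighbour thus showed the all-or-none difference, and both intervals ended far below the 7.36 of BC018473.

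The remaining genes within 100 kb were Cygb, Prcd and 1810032O08Rik on one side and Jmjd6, Mettl23, Srsf2 and Mfsd11 on the other. 1810032O08Rik had 3.77, 5.39, 3.76 and 3.63 CPM in Ad-FAM3A1, Ad-FAM3A2, Ad-FAM3A5 and Ad-FAM3A7, and 1.69, 2.01 and 2.84 CPM in Ad-FAM3A3, Ad-FAM3A4 and Ad-FAM3A6. It was higher in each expressing aorta than in any low one, but Ad-sham aortas ranged from 1.91 to 4.52 CPM and spanned the gap. Its log2FC was 0.92 (SE 0.383; edgeR, unadjusted p = 0.0428, adjusted p = 0.999). It overlaps St6galnac2 on the opposite strand and 3 small nucleolar RNAs, and whether counting used strand is not given. The others overlapped between the sets: Srsf2, a splicing factor, had a log2 fold change of 0.08, Jmjd6, a hydroxylase of RNA-binding proteins, 0.21, Cygb, the globin of fibroblasts and smooth muscle, 0.09, and Prcd, at no more than 1.57 CPM, 0.80, which was 1.56 without Ad-FAM3A3 and 0.38 without Ad-FAM3A6.

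The 9 genes tested within 100 kb, the 3 locus genes aside, had fold changes above 0, from 0.08 to 0.92 on the log2 scale with a median of 0.18, and 1 unadjusted p was below 0.05, beside 1.13% over all genes tested. The sign was not stable, since Cygb, Mxra7, Mettl23 and Mfsd11 each turned negative when 1 aorta was left out. Between 100 and 500 kb, 3 of 17 genes tested were above 0 and 14 below, with 1 unadjusted p under 0.05. The neighbours Sphk1 (-0.10), Ube2o (-0.13), Rhbdf2 (-0.07) and Mgat5b (0.30) all had intervals that included 0.

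**Figure D3:**
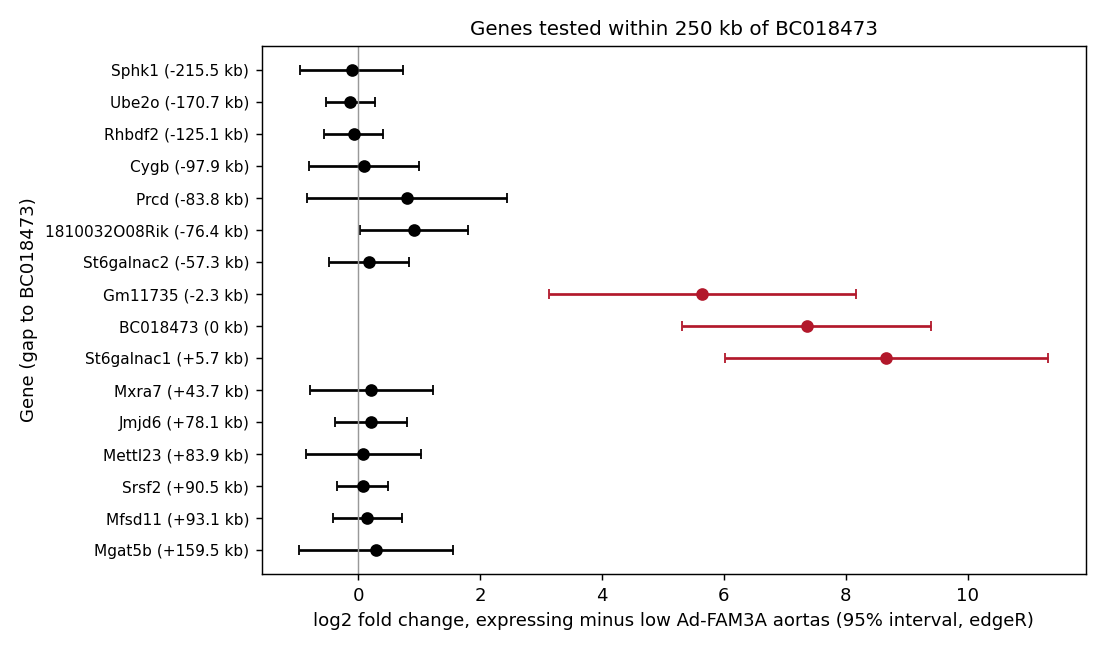
log2 fold changes with 95% intervals (edgeR) of the 16 genes tested within 250 kb of BC018473, ordered by position, with the gap to BC018473 in kb beside each name. The 3 locus genes stand at 5.65 to 8.67, and the intervals of the other 13 all lie below 3, with 1810032O08Rik the only one that does not include 0.

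The wider region ran from Kcnh6, its first tested gene, which starts at 106008124, to the last listed gene of chromosome 11, which ends at 121970685. Of its 464 listed genes 242 were tested, and 0 were called (0%). An unadjusted p under 0.05 was found for 8 (3.31%), 5 higher (2.07%) and 3 lower (1.24%), and 9 did not overlap between expressing and low aortas (3.72%), 7 higher (2.89%) and 2 lower (0.826%). Apart from the 3 locus genes, 5 of 239 had an unadjusted p under 0.05 (2.09%) and 6 did not overlap (2.51%), beside 1.11% and 2.30% over all genes outside the locus. The median size of the log2 fold change was 0.219 in the region and 0.236 over all genes. By distance, the non-overlapping genes other than the locus numbered 1 of 9 tested within 100 kb and 0 of 17 between 100 and 500 kb. They numbered 2 of 75 between 500 kb and 2 Mb, 3 of 84 between 2 and 5 Mb and 0 of 54 beyond. Against the other 9 aortas, 3 genes of the region did not overlap (1.24%), and these were BC018473, St6galnac1 and Gm11735.

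Within the wider region, the most distant difference with separate ranges was that of Fn3k, which encodes fructosamine 3-kinase, an enzyme that removes sugars from glycated proteins. It had 5.62, 7.35, 2.51 and 3.58 CPM in the expressing aortas and 2.39, 1.82 and 2.05 CPM in the low ones, with Ad-sham at 3.01 to 9.86 CPM. In this gene the Ad-sham aortas resembled the expressing ones, and the log2FC was 1.20 (SE 0.465; edgeR, unadjusted p = 0.0324). Wdr45b, an autophagy gene, had 49.0 to 62.1 CPM in expressing aortas and 37.8 to 48.3 CPM in low ones. Slc16a5, a monocarboxylate transporter, had a log2 fold change of -1.48, with 0.778, 0.673, 0.885 and 0.404 CPM against 0.984, 1.89 and 2.84 CPM. Llgl2, a cell polarity gene, had one of -0.78, and A930037H05Rik one of 0.74. Among genes whose ranges overlapped, Rnf157 had the smallest unadjusted p (0.0101 by edgeR), at 9.39, 8.88, 6.56 and 11.1 CPM in the expressing aortas and 40.6, 10.4 and 24.2 CPM in the low ones. Its Ad-sham values ran from 10.4 to 34.9 CPM, and its log2 fold change of -1.47 was -0.96 without Ad-FAM3A3. Rab37, a small GTPase, had a log2 fold change of -2.46, which was -1.59 without Ad-FAM3A6, and Gm11730 one of -0.90, which was -0.47 without Ad-FAM3A3.

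**Figure D4:**
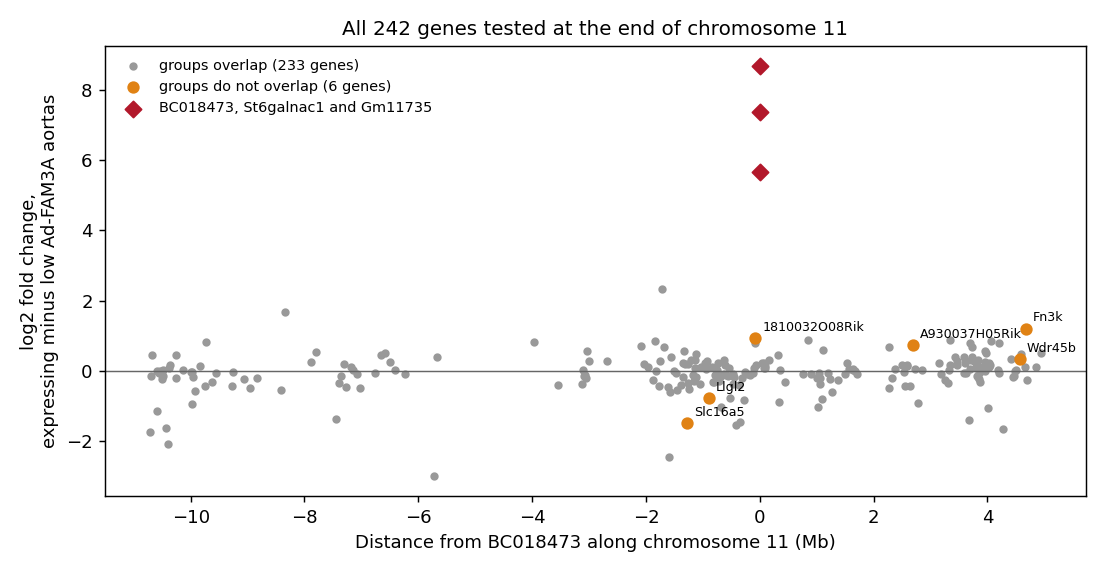
log2 fold change of each of the 242 genes tested in the wider region of chromosome 11 against distance from BC018473 in Mb. Diamonds mark the 3 locus genes at 5.65 to 8.67, and orange points the 6 others whose ranges do not overlap, which lie between -1.48 and 1.20 on both sides.

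The sialyltransferase family was compared by level per length. By mean level St6galnac1 ranked 11 of 20 sialyltransferases in the expressing aortas, at 1.33 ± 0.6996 RPKM (SD, n = 4). It passed the filter only through those aortas. Of the other sialyltransferases tested, 0 had an unadjusted p under 0.05, beside 1.13% of all genes, and St6gal2 and St8sia5 were too low to be tested. The related St6galnac6 had 13.4 ± 2.52 RPKM (SD, n = 4) in expressing, 10.3 ± 3.44 (SD, n = 3) in low and 13.3 ± 3.16 (SD, n = 6) in Ad-sham aortas. St6galnac4 had 4.63 ± 0.930 RPKM (SD, n = 4) and 4.15 ± 0.166 (SD, n = 3), and St6galnac2 had 2.09 ± 0.471 RPKM (SD, n = 4) and 1.87 ± 0.266 (SD, n = 3). St6galnac3 was at 0.910 ± 0.235 and 0.877 ± 0.0214 RPKM. The highest was St3gal2, which caps O-glycans and gangliosides, at 23.3 ± 6.74 RPKM (SD, n = 4) and 22.4 ± 16.5 (SD, n = 3). Of the 17 tested besides St6galnac1, 8 were higher and 9 lower in the expressing aortas, with a median log2 fold change of -0.019. St8sia1, the synthase of ganglioside GD3, had the lowest log2 fold change, -2.62 with a 95% interval of -5.57 to 0.33.

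**Figure D5:**
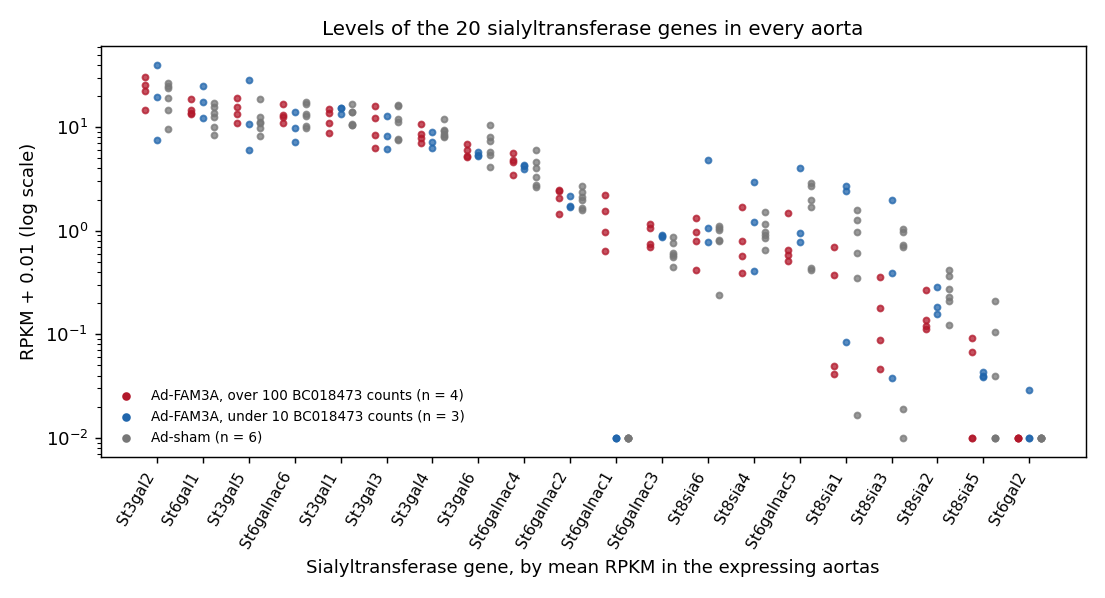
RPKM plus 0.01, on a log scale, of 20 sialyltransferase genes in each of the 13 aortas, ordered by the mean of the 4 expressing aortas. St6galnac1 is at 0.6252 to 2.22 RPKM in the expressing aortas and listed at 0 in the other 9, whereas the sets overlap for every other gene that was tested.

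Genes that act before or after St6galnac1 did not pass the test. Of 19 tested genes that start and extend mucin-type O-glycans, 0 had an unadjusted p under 0.05, with 7 higher and 12 lower. With 1.13% of all genes below that p, a count of 0 in this list and the next 3 does not set them apart. Galnt1, which attaches the first N-acetylgalactosamine, had a log2 fold change of 0.04, and C1galt1 and its chaperone C1galt1c1, which make the core that competes with sialyl-Tn, had -0.07 and 0.30. Of 11 genes for the supply and removal of sialic acid, 0 had an unadjusted p under 0.05. Gne, which starts sialic acid synthesis, had 0.11, Cmas, which activates it, -0.24, and the transporter Slc35a1 0.18. Among 9 tested carriers of O-glycans and 13 tested glycan-binding receptors the number was 0 as well. Among these genes 1 had separate ranges, beside 2.31% of all genes: Mgl2, a macrophage lectin for N-acetylgalactosamine, at 15.5 to 18.9 CPM in expressing and 6.28 to 13.9 CPM in low aortas, and Ad-sham aortas reached 31.5 CPM.

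Fam3a, the gene the virus carries, was measured in both sets. It had 27.1, 29.6, 23.1 and 18.5 CPM in Ad-FAM3A1, Ad-FAM3A2, Ad-FAM3A5 and Ad-FAM3A7, and 21.6, 28.8 and 18.6 CPM in Ad-FAM3A3, Ad-FAM3A4 and Ad-FAM3A6. The log2 fold change was 0.11, with a 95% interval of -0.46 to 0.68 (exact permutation test, two-sided, p = 0.686), and the Ad-sham mean of 24.4 ± 4.28 CPM (SD, n = 6) lay between those of the sets. The ranges of expressing, low and Ad-sham aortas overlapped.

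Outside the wider region, most of the higher genes with the smallest p were expressed at low levels. Asgr2, a receptor chain for desialylated glycoproteins best known in liver, which lies on chromosome 11 before that region, had 1.38, 0.673, 0.885 and 1.21 CPM in the expressing aortas and 0.189 to 0.241 CPM in the low ones, a log2FC of 2.24 (SE 0.535). Ad-sham aortas, at 0.243 to 1.01 CPM, filled the gap. The 8 liver markers tested were all higher in the expressing aortas, with 0 unadjusted p under 0.05 beside 1.13% of all genes, and their summed level was 5.998 to 446 CPM in expressing, 2.90 to 93.4 CPM in low and 5.81 to 74.3 CPM in Ad-sham aortas. The part of liver RNA in the Asgr2 difference was not tested. Lypd1 (2.11), Gm9803 (2.41), 6430571L13Rik (2.12), Atp10b (2.26) and Rnf182 (1.41) also had separate ranges, with overlap from Ad-sham in each. Cd209f, a lectin of the DC-SIGN family, had 1.62 with overlapping ranges. In the other direction Gm16559 (-2.07) and Gm5931 (-1.92) had separate ranges, with no aorta above 1.33 CPM.

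Several of the lower genes rested on 1 low aorta. Cpb1 and Ctrl, digestive enzymes of the pancreas, had 162 and 66.6 CPM in Ad-FAM3A6 and no more than 3.77 and 1.32 CPM in the other Ad-FAM3A aortas, with log2 fold changes of -4.34 and -5.21. Myh6, the atrial myosin heavy chain, had 77.6 CPM in Ad-FAM3A6, and Lrp2, the megalin receptor of kidney tubules, had 50.7 CPM in Ad-FAM3A3. The other low aortas lay within or near the expressing range for these 4 genes. Gm3375, Gm29216 and Zdbf2 had overlapping ranges too, with log2 fold changes of -2.33, -1.56 (-0.91 without Ad-FAM3A3) and -1.84.

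Tissue and cell type lists did not divide as BC018473 did. In none of 17 lists did summed levels of the expressing and low aortas separate. B cell and plasma cell markers were summed to 81.1 to 5346 CPM in expressing and 56.3 to 17186 CPM in low aortas, with the highest values in Ad-FAM3A7 and Ad-FAM3A6, 1 in each set. All 9 of these markers, all 8 T cell markers and all 10 sympathetic neuron markers were lower in the expressing aortas, and all 10 macrophage and 8 adipocyte markers were higher, with 0 unadjusted p under 0.05 in each of these lists. The lower directions rested on few aortas: T cell markers summed to 585 CPM in Ad-FAM3A6 and to 21.8 and 12.3 CPM in the other low aortas, against 13.4 to 91.3 CPM in expressing ones. Sympathetic neuron markers summed to 2579 CPM in Ad-FAM3A3, 667 in Ad-FAM3A6 and 71.2 in Ad-FAM3A4, against 69.8 to 545 CPM. The higher directions did so too: macrophage markers summed to 4699 CPM in Ad-FAM3A2 and to 1183 to 2477 CPM in the other expressing aortas, against 799 to 2518 CPM in low ones. Adipocyte markers summed to 7435 CPM in Ad-FAM3A1, 8694 in Ad-FAM3A2, 3029 in Ad-FAM3A5 and 4779 in Ad-FAM3A7, against 3508 to 5431 CPM in low ones. Of 6 cardiac markers tested, 2 had an unadjusted p under 0.05 (Myh6 and Tnni3), as had 2 of 3 kidney markers (Lrp2 and Cdh16), all lower, beside 1.13% of all genes. Sums for these lists cover all 8 markers of each, tested or not. Cardiac markers summed to 229 CPM in Ad-FAM3A6 and to 9.42 and 25.5 CPM in the other low aortas. Kidney markers summed to 391 CPM in Ad-FAM3A3 and to 1.38 and 3.14 CPM in the other low aortas. Smooth muscle markers, the defining cells of the aortic wall, summed to 6214 to 14618 CPM in expressing and 2526 to 20152 CPM in low aortas. Epithelium is the tissue in which St6galnac1 is best known, and 5 of its 8 listed markers were tested. All 8 together summed to 16.9, 24.2, 11.4 and 7.61 CPM in Ad-FAM3A1, Ad-FAM3A2, Ad-FAM3A5 and Ad-FAM3A7. The low aortas, at 15.2 CPM or less, lay inside that range and above its lower values in Ad-FAM3A5 and Ad-FAM3A7, and Ad-sham aortas ranged from 6.25 to 24.6 CPM. Immediate-early and heat shock genes, which respond to handling and stress, were mixed. Atf3 had 157, 43.1, 23.4 and 18.3 CPM in Ad-FAM3A1, Ad-FAM3A2, Ad-FAM3A5 and Ad-FAM3A7, above the 15.0 to 17.1 CPM of the low aortas but overlapping Ad-sham at 9.99 to 26.0 CPM. Of 8 immediate-early genes, 2 had an unadjusted edgeR p under 0.05, Atf3 (log2FC 1.94) and, in the other direction, Egr1 (-0.89), and of 8 heat shock genes 1 did, Dnajb1 (0.64), beside 1.13% of all genes. Of 9 fibroblast markers, 7 were higher and 2 lower, and their sums overlapped, at 5468 to 11910 CPM in expressing and 3449 to 12106 CPM in low aortas. The matrix gene Dpt was the 1 of these 9 with an unadjusted p under 0.05 and with separate ranges, beside 2.31% of all genes with separate ranges, at 195 to 322 CPM in expressing and 116 to 194 CPM in low aortas. None of these had an adjusted p under 0.05. Their part in the differences given above was not tested. In bulk tissue, more cells of a type and more RNA per cell cannot be told apart.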

How the data were processed

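RNA of 13 aortas was sequenced with 150-base reads. According to the methods and file headers, the authors removed low-quality reads, aligned to GRCm38 with Hisat2 and counted reads per Ensembl gene with FeatureCounts; the deposited values used here are those raw counts, and strand and multi-mapping settings are not stated. The deposited table of FPKM means pools the 7 Ad-FAM3A aortas and was not used. The members and gene lists were chosen with earlier results of these data known. The labels give 1 aorta per library, and p-values measure only the spread between these samples.

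Genes passing filterByExpr (16078 of 54532) were tested with edgeR 4.0.16 (TMM, quasi-likelihood), Benjamini-Hochberg adjusted over all of them, in R 4.3.3. Alternatives were other normalizations and filters, DESeq2 1.42.0, limma-voom (limma 3.58.1), a fit of 13 aortas with the virus as covariate, and leaving out each aorta. Fits were tested on simulated data. Sequences are from GENCODE M21, whose coordinates matched for 25 of 25 genes near BC018473. Named genes were the locus genes, Fam3a, genes within 250 kb, the 5 smallest p in each direction in the region, the 10 smallest p in each direction with |log2FC| above 1, switched genes and list genes. The genes not overlapping the other 9 aortas, and Wdr45b and A930037H05Rik, were named after their values were seen. Totals were 14481179 to 19797407 counts, and 3 counts equal 0.140 to 0.221 CPM.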

Additional observations from a re-analysis of the deposited data

Results flagged for a closer look

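Values of the named genes in the expressing and the Ad-sham aortas were examined for 1 aorta far from the rest of its set. The low set was not examined, so single high low aortas, as for Cpb1 and Lrp2, do not count here. Of 84 groups of values 2 stood out, where about 4.2 would arise by chance (1 in 20). 1810032O08Rik had 2.46 log2 CPM in Ad-FAM3A2, against 1.91 to 1.96 in the other expressing aortas. Llgl2 had 1.86 log2 CPM in Ad-sham1, against 3.08 to 3.51 in the other Ad-sham aortas.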

How the results depend on the processing

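By edgeR, 0 genes were called under each normalization and filter tried, without each aorta and in the fit of 13 aortas, and by limma-voom, run once with the main filter, also 0, over all genes and in the wider region of chromosome 11. DESeq2 called 2 (both higher, both on chromosome 11), BC018473, which chose the sets, and St6galnac1, known to share its pattern. The smallest adjusted edgeR p was 0.530, and 0.0878 with no filter and 0.0833 in the fit of 13 aortas, each time for BC018473, and 0.112 without Ad-FAM3A4, for Klk1, a gene named after its value was seen. The number of genes with an unadjusted p under 0.05 was 181, and 1026 without Ad-FAM3A4, 112 without Ad-FAM3A2, 298 without Ad-FAM3A6, 586 with no filter, 416 with DESeq2 and 293 in the fit of 13 aortas; the cause was not tested. With at least 10 counts in every aorta, which removes the locus genes themselves, 4 genes of the region did not overlap, against 9.

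Switched genes were the same 2 under both alternatives. Leaving out 1 aorta turned the sign of 8 genes near 0. Their log2 fold changes ranged from -0.34 to 0.081 for Sphk1, -0.15 to 0.0119 for Rhbdf2, -0.21 to 0.45 for Cygb, -0.21 to 0.72 for Mxra7, -0.32 to 0.39 for Mettl23, -0.0272 to 0.31 for Mfsd11, -0.0767 to 0.63 for Mgat5b and -0.0382 to 0.29 for Fam3a. BC018473 ranged from 6.77 to 7.81 and St6galnac1 from 8.28 to 8.89. Gm11735, with 5.65 in all 7 aortas, ranged from 5.15 to 7.52 over the 4 fits it entered, the highest without Ad-FAM3A4. It did not pass the filter without Ad-FAM3A2, Ad-FAM3A5 or Ad-FAM3A7, with at least 10 counts in every aorta, or in the fit of 13 aortas. No paired analysis was possible because the compared aortas carry 1 virus label and share no replicate number.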
